A study of Homo sapiens with 10 samples.

Results

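The genes described are 9 that make, recycle, use or break down glutathione: GCLC, GCLM, GSS, GSR, GPX1, GPX4, GPX8, CHAC2 and GLRX. They were chosen by name for their function, with earlier results of these data known. They are 9 of 61533 genes in the count tables and 9 of the 16181 genes with enough counts to be tested. RNA-seq counts came from T24, a human bladder cancer cell line that is sensitive to cisplatin, and from T24R2, a resistant line that another laboratory derived from T24 by serial exposure to cisplatin, a platinum drug that damages DNA. Each line had 5 replicate libraries from day 3 of culture at confluence. Both lines are labelled as grown in RPMI with fetal bovine serum and antibiotics, whereas the methods of the study state that T24R2 was kept in cisplatin, so any effect of the drug itself cannot be told apart from that of the line. Each line is a single derivation, and the labels do not say whether replicates were separate cultures, so p-values measure only the spread between these libraries.

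Glutathione is a tripeptide of glutamate, cysteine and glycine and the most abundant low-molecular-weight thiol of most cells. Glutamate-cysteine ligase joins glutamate to cysteine in the rate-limiting step, and glutathione synthetase adds glycine. Glutathione peroxidases spend reduced glutathione to detoxify peroxides, glutathione reductase restores it with NADPH, glutaredoxins use it to reduce disulfides on proteins, and gamma-glutamylcyclotransferases degrade it. Glutathione also binds cisplatin, and its supply has long been studied in platinum resistance.

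The 9 genes did not move together. GCLC and GCLM, the catalytic and modifier subunits of glutamate-cysteine ligase, rose in T24R2 to 3.63 and 3.90 times their T24 means. GSS, the enzyme of the next step, fell to 54.6% of its T24 mean, and GPX4, the peroxidase of membrane lipids, fell to 69.7%. The other 5 genes did not pass both thresholds used here, a log2 fold change over 0.5 in either direction and a Benjamini-Hochberg adjusted p under 0.05 in edgeR's quasi-likelihood test. With 2 genes higher and 2 lower, 4 of 9 were called, where the same rule called 51.4% of all tested genes (24.9% higher and 26.5% lower), so the number called is no larger a share than in the transcriptome as a whole. Leaving out the fold change minimum, 6 of the 9 passed, against 75.5% of all tested genes. The ranges of the 5 and 5 libraries did not overlap for the same number, 6 of the 9, against 61.2% of all tested genes. The median log2 fold change of the 9 was 0.13 and its median size 0.40, beside 0.01 and 0.54 over all tested genes. Levels are given as CPM, counts scaled to a common library size after TMM adjustment, and as mean ± SD of 5 libraries.

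**Figure D1:**
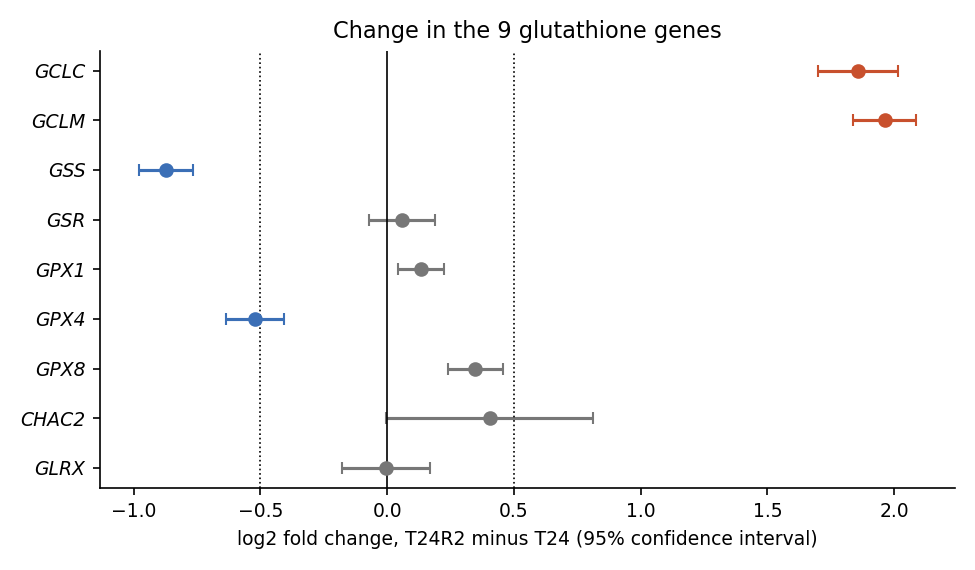
The log2 fold change of each gene, T24R2 minus T24, is plotted as a point with its 95% confidence interval from edgeR; dotted lines mark 0.5 in either direction, orange points were called higher, blue points lower and grey points neither. GCLC and GCLM lie near 2, GSS lies below the lower line, and the interval of GPX4 spans that line.

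Total counts were 9257843 to 10247941 in T24 and 9591379 to 10840954 in T24R2. Replicates differed by more than sampling noise in each of the 20 pairs within a line (chi-square per degree of freedom 2.01 to 7.04), so none was treated as a repeat deposit. Of 17 urothelial and epithelial markers, 10 could be tested and all 10 were lower in T24R2, with a summed level of 5099 to 5813 CPM in T24 and 3028 to 3233 CPM in T24R2. The keratins KRT7 (2242 ± 70.2 and 1370 ± 64.6 CPM) and KRT8 (1541 ± 121 and 1009 ± 14.1 CPM) were lower in T24R2 but still abundant. KRT19 went from 267 ± 7.23 CPM to at most 3 counts in any T24R2 library (at least 964-fold higher in T24), EPCAM from 4.45 ± 0.899 CPM to at most 2 counts, ELF3 from 72.1 ± 10.2 to 0.278 ± 0.0962 CPM and GATA3 from 22.1 ± 2.004 to 0.214 ± 0.210 CPM. UPK1B, UPK3A, KRT20 and CDH1 did not exceed 3 counts in any library. None of 6 immune markers reached the level for testing, and their summed level stayed under 3 CPM. Of 4 endothelial markers, the 2 tested were lower in T24R2, with a summed level of 225 to 278 CPM in T24, nearly all from CDH5 (239 ± 22.3 CPM), and 1.604 to 2.495 CPM in T24R2. Of 7 fibroblast markers, the 2 tested were lower, with sums of 8.86 to 11.2 CPM and 0.954 to 2.29 CPM. The part of these differences in the results was not tested, and in such bulk libraries fewer cells of a kind and less RNA per cell cannot be told apart.

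**Figure D2:**
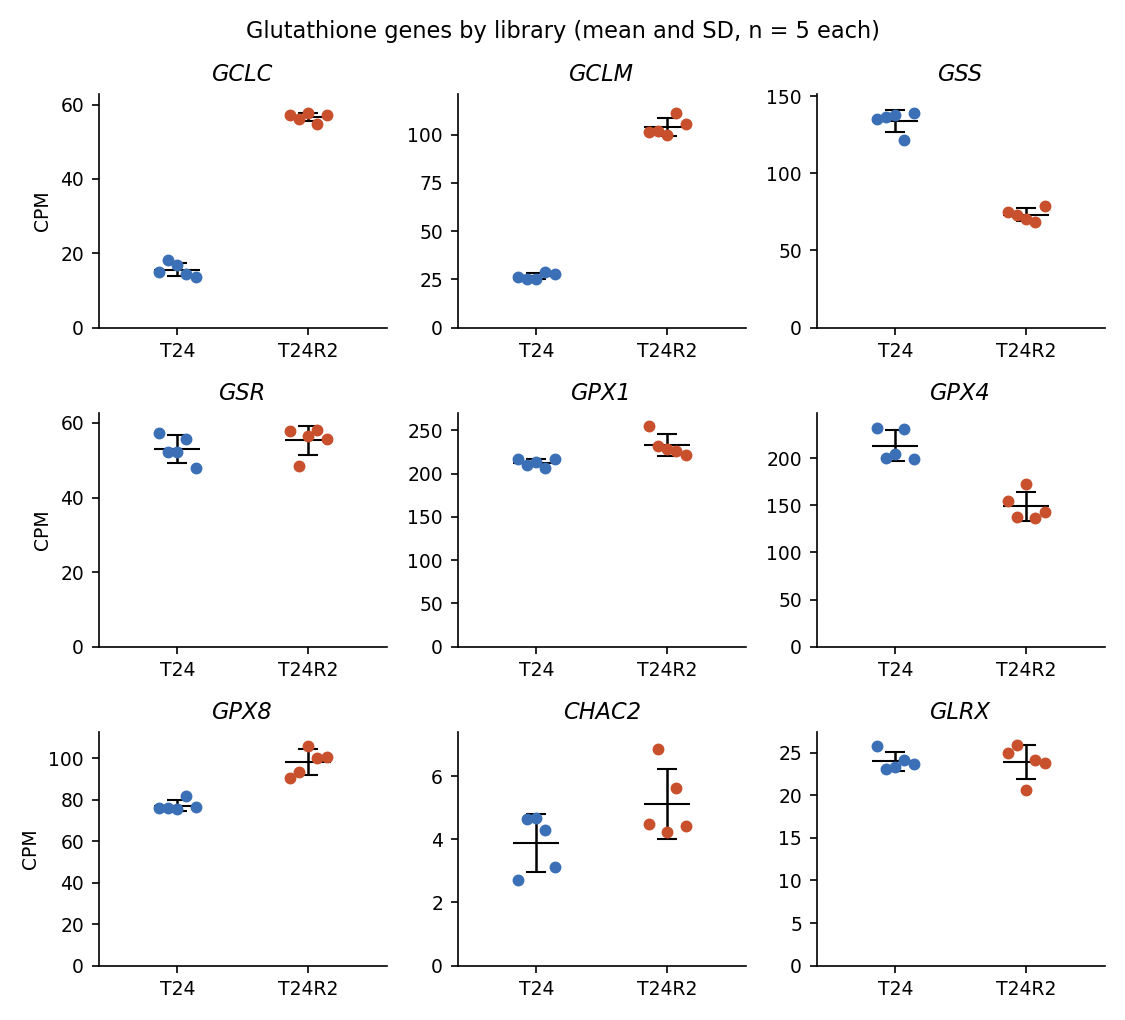
Each panel plots 1 gene's CPM in the 5 T24 (blue) and 5 T24R2 (orange) libraries on an axis that starts at 0, with black bars for the mean and SD. GCLC and GCLM separate widely upwards and GSS downwards, GPX4 separates by a smaller gap, and GSR, CHAC2 and GLRX overlap between the lines.

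GCLC (ENSG00000001084.13; hg38 chromosome 6, 53497341 to 53616970, minus strand) encodes the catalytic subunit of glutamate-cysteine ligase. In T24, replicates 1 to 5 gave 14.9, 18.1, 16.9, 14.4 and 13.7 CPM. In T24R2, they gave 57.1, 56.1, 57.8, 54.9 and 57.3 CPM. Each T24R2 library lay above each T24 library, and the T24R2 values were the more tightly grouped (56.6 ± 1.15 CPM against 15.6 ± 1.83 CPM). The log2 fold change was 1.86 (SE 0.08, adjusted p = 3.6e-23, edgeR; exact permutation p = 0.00794, the smallest that 5 against 5 allow). GCLC-AS1, an antisense transcript whose exons overlie 3.54% of the GCLC exon bases, was higher as well by 2.24 on the log2 scale, at a mean of 71.8 counts against 379.5 for GCLC. Reads of the 2 genes cannot be told apart if the libraries carry no strand information, and with all counts of GCLC-AS1 subtracted the log2 fold change of GCLC was 1.78.

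GCLM (ENSG00000023909.10; chromosome 1, 93885199 to 93909456, minus strand) encodes the modifier subunit, which raises the efficiency of the catalytic subunit. Its T24 libraries gave 26.4, 25.5, 25.1, 28.7 and 27.6 CPM. The T24R2 libraries gave 101, 102, 99.8, 111 and 105 CPM. The 2 sets of libraries were far apart, with means of 26.7 ± 1.505 and 104 ± 4.52 CPM. GCLM was higher by 1.96 on the log2 scale (SE 0.06, adjusted p = 1.2e-27, edgeR). No gene on the opposite strand shared exon bases with it.

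Because the 2 subunits act as a pair, their proportion was compared within libraries, where scaling between libraries cancels. The log2 ratio of GCLM to GCLC counts was 0.82, 0.49, 0.57, 0.99 and 1.01 in the T24 libraries and 0.83, 0.86, 0.79, 1.02 and 0.88 in the T24R2 libraries. The 2 ranges overlapped, and T24 was the more variable. The means differed by 0.10 (exact permutation p = 0.397, two-sided; 0.397 after adjustment over the 3 ratios tested). Per kilobase of exon, GCLM stood at 2.75 ± 0.446 times GCLC in T24 and at 2.92 ± 0.180 times GCLC in T24R2.

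Since both subunit genes rose, the 100 bases before their RefSeq start sites (GRCh38.p14, minus strand of both chromosomes) are shown, with any match to TGACNNNGC, the core of the antioxidant response element through which NRF2 acts, in capitals. GCLC lies at chr6:53545102-53545201 and GCLM at chr1:93909431-93909530.
GCLC: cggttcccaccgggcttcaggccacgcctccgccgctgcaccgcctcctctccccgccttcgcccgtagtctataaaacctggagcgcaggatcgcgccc
GCLM: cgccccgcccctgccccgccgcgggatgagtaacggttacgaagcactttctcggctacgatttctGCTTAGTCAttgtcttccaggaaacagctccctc
The GCLM stretch held 1 match, on the reverse strand, whose first base was at position -34 from the start site, and the GCLC stretch held none. The RefSeq start is not the only annotated one. In GENCODE v44, 26 of the 100 GCLM bases and 0 of the GCLC bases lie in exons. The GCLC gene as counted extends further upstream, to 53616970. Over the window of 250 bases before to 50 after the start, RefSeq entries matched 7 of the 9 genes, with several windows for GPX4 and CHAC2 and none matched for GSS and GSR. TGACNNNGC on either strand was present in the GCLM window alone, where 13.3% of all 35116 promoter windows hold it. The AP-1 motif TGANTCA, which can share letters with it, was in none of them (7.71% of all windows). The composite motif TGATGNAA bound by ATF4 was in the GPX8 window (3.62% of all windows), and the GC box GGGCGG was in windows of GCLM, GPX1 and GPX4 (45.0% of all windows). A match is a description of letters in the window, and a missing match says only that these letters are not in it.

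GSS (ENSG00000100983.12; chromosome 20, 34928432 to 34956027, minus strand) encodes glutathione synthetase, which completes the tripeptide. Its T24 libraries gave 135, 136, 138, 122 and 139 CPM. Its T24R2 libraries gave 74.9, 72.7, 70.3, 68.3 and 79.1 CPM. Every T24R2 library lay below every T24 library, although T24 replicate 4 was lower than the rest of its line. The means were 134 ± 6.90 and 73.1 ± 4.15 CPM, and the log2 fold change was -0.87 (SE 0.05, adjusted p = 3.6e-18, edgeR). Exons of MYH7B overlie 2.24% of its exon bases on the opposite strand, and with those counts subtracted the value was -0.90.

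The 2 steps of synthesis therefore moved in opposite directions at the RNA level. The log2 ratio of GCLC to GSS counts was -3.17, -2.91, -3.02, -3.07 and -3.33 in T24. It was -0.39, -0.37, -0.28, -0.32 and -0.46 in T24R2. All T24R2 libraries lay above all T24 libraries, with a difference in means of 2.74 (exact permutation p = 0.00794, two-sided, and 0.0119 adjusted over the 3 ratios). GCLC was higher and GSS lower, each without overlap, so the ratio had to separate too. Its p is no further evidence beyond the 2 genes. Per kilobase of exon, GCLC was at 0.0835 ± 0.00919 of the GSS level in T24 and at 0.556 ± 0.0267 of it in T24R2, so that GSS remained the more abundant transcript in both lines by this measure.

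**Figure D3:**
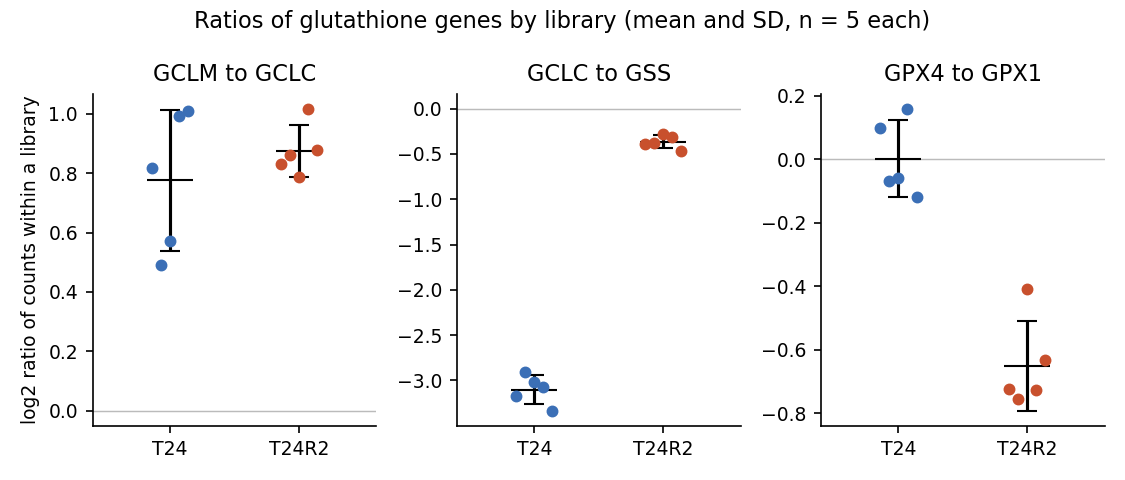
Each panel plots the log2 ratio of 2 genes' counts within each library, for 5 T24 (blue) and 5 T24R2 (orange) libraries, with black bars for the mean and SD. The GCLM to GCLC ratios overlap between lines, the GCLC to GSS ratios differ by 2.74, and the GPX4 to GPX1 ratios are lower in T24R2 by a difference of -0.65.

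The 3 peroxidase genes differ in the codon of the residue that attacks the peroxide. In GPX1 and GPX4 that codon is TGA, marked in GENCODE as selenocysteine, and in GPX8 the aligned codon is TGC, for cysteine. Each line below gives 51 coding bases around it, with the codon in capitals (hg38, GENCODE v44, read 5′ to 3′ along the gene). They lie at chr3:49358108-49358158 on the minus strand for GPX1, at chr19:1105379-1105429 on the plus strand for GPX4 and at chr5:55161000-55161050 on the plus strand for GPX8.
GPX1: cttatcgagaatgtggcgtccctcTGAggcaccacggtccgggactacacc
GPX4: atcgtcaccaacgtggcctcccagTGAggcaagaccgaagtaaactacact
GPX8: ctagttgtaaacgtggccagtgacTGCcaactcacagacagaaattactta
The codon is number 49 of GPX1, number 73 of GPX4 and number 79 of GPX8 in the transcripts used. For the alignment of the full translations, selenocysteine was read as cysteine, so aligned TGA and TGC codons count as identical. On this basis GPX1 and GPX4 shared 40.6% of 170 aligned residues, GPX4 and GPX8 40.6% of 165, and GPX1 and GPX8 35.6% of 174.

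GPX4 (ENSG00000167468.19; chromosome 19, 1103994 to 1106791, plus strand) reduces lipid hydroperoxides within membranes and is the central suppressor of ferroptosis, a form of cell death by lipid peroxidation. Its T24 libraries gave 232, 200, 204, 231 and 199 CPM. Its T24R2 libraries gave 155, 137, 172, 137 and 143 CPM. The highest T24R2 library, replicate 3, lay below the lowest T24 library. The means were 213 ± 16.5 and 149 ± 14.9 CPM, and the log2 fold change was -0.52 (SE 0.06, 95% confidence interval -0.63 to -0.41, adjusted p = 8.7e-11, edgeR). The fall kept its direction, and an adjusted p under 0.05, in every alternative fit. However, its size was at the edge of the fold change minimum of 0.5. It was -0.36 with scaling by library size alone, -0.45 with upper-quartile scaling, -0.49 with a stricter count filter, and -0.49 to -0.50 without T24 replicate 1, T24 replicate 4, T24R2 replicate 2 or T24R2 replicate 4, and GPX4 would not be called under any of these 7.

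GPX1 (ENSG00000233276.8; chromosome 3, 49357176 to 49358353, minus strand) encodes the abundant cytosolic peroxidase of hydrogen peroxide. T24 libraries gave 216, 210, 213, 207 and 217 CPM. T24R2 libraries gave 255, 232, 229, 226 and 222 CPM. The ranges did not overlap, but they came close, and replicate 1 was the highest of T24R2. The means were 212 ± 4.27 and 233 ± 13.1 CPM, a log2 fold change of 0.13 (SE 0.04, adjusted p = 0.0079, edgeR), which is under the fold change minimum. GPX1P1, a processed copy of GPX1 on chromosome X, was counted at 86 to 164 in T24 and at 184 to 342 in T24R2, a log2 fold change of 0.87 (SE 0.12, adjusted p = 4.2e-08, edgeR). Reads that match both copies equally were removed as multiply mapped and are in neither count. With the GPX1P1 counts added, GPX1 was higher by 0.19.

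GPX8 (ENSG00000164294.14; chromosome 5, 55160167 to 55167297, plus strand) is a membrane protein of the endoplasmic reticulum. T24 libraries gave 76.1, 76.0, 75.4, 81.6 and 76.3 CPM. T24R2 libraries gave 90.2, 93.3, 106, 100 and 101 CPM. All T24R2 libraries lay above T24, and the spread was wider among them (77.1 ± 2.57 and 98.1 ± 6.27 CPM). The log2 fold change of 0.35 (SE 0.05, adjusted p = 2.9e-07, edgeR) was under the fold change minimum, except with scaling by library size alone, where it was 0.51.

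The selenocysteine peroxidases were thus not changed to the same degree. The log2 ratio of GPX4 to GPX1 counts was 0.10, -0.07, -0.06, 0.16 and -0.12 in T24. It was -0.72, -0.76, -0.41, -0.73 and -0.63 in T24R2. No T24R2 library reached the T24 range, although replicate 3 stood apart from the other T24R2 libraries. The difference in means was -0.65 (exact permutation p = 0.00794, two-sided, and 0.0119 adjusted over the 3 ratios). GPX4 was lower and GPX1 higher, each without overlap, so this separation and its p follow from the 2 genes and add no further evidence. Per kilobase of exon, GPX4 stood at 0.606 ± 0.0513 of GPX1 in T24 and at 0.386 ± 0.0399 in T24R2.

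GSR (ENSG00000104687.14; chromosome 8, 30678066 to 30727846, minus strand) encodes glutathione reductase, which regenerates reduced glutathione. Its T24 libraries gave 57.3, 52.3, 52.1, 55.7 and 47.8 CPM. Its T24R2 libraries gave 57.8, 48.5, 56.5, 58.1 and 55.7 CPM. The ranges overlapped almost entirely, and the low T24R2 library was replicate 2. The means were 53.0 ± 3.66 and 55.3 ± 3.92 CPM, a log2 fold change of 0.06 (adjusted p = 0.407, edgeR). Its 95% confidence interval of -0.07 to 0.19 holds no change of the size seen in GCLC, GCLM, GSS or GPX4. With scaling by library size alone the value was 0.22 (adjusted p = 0.0021, edgeR), outside this interval but under the fold change minimum.

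GLRX (ENSG00000173221.14; chromosome 5, 95751319 to 95822726, minus strand) encodes cytosolic glutaredoxin 1, which removes glutathione from modified proteins. T24 libraries gave 25.8, 23.0, 23.3, 24.1 and 23.7 CPM. T24R2 libraries gave 25.0, 25.9, 20.6, 24.1 and 23.8 CPM. The ranges overlapped, and the highest and lowest libraries were both T24R2. The means were 23.99 ± 1.11 and 23.89 ± 1.996 CPM, a log2 fold change of -0.00 with an interval of -0.18 to 0.17 (adjusted p = 0.960, edgeR).

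CHAC2 (ENSG00000143942.5; chromosome 2, 53767804 to 53775196, plus strand) encodes a cytosolic cyclotransferase that degrades glutathione slowly. It was the least counted of the 9 genes, with 26 to 79 counts per library. T24 libraries gave 2.699, 4.63, 4.68, 4.30 and 3.13 CPM. T24R2 libraries gave 4.50, 6.85, 4.22, 5.61 and 4.42 CPM. The ranges overlapped, although the 2 highest values were T24R2 libraries and the 2 lowest T24. The means were 3.89 ± 0.914 and 5.12 ± 1.11 CPM, and the log2 fold change of 0.40 (SE 0.20, adjusted p = 0.0673, edgeR; exact permutation p = 0.143) had an interval of -0.00 to 0.81, which is too wide to tell a change over the fold change minimum from none.

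Levels of different genes were compared per kilobase, with the merged exon length as the main measure. In T24, the order was GPX1 (180 ± 3.63 CPM per kilobase), GPX4 (109 ± 8.47), GSS (21.7 ± 1.12), GPX8 (19.1 ± 0.636), GSR (14.7 ± 1.02), GCLM (4.91 ± 0.277), GLRX (3.85 ± 0.178), CHAC2 (2.97 ± 0.698) and GCLC (1.81 ± 0.212). Among the T24 libraries, the ranges of neighbours in this order overlapped for GSS and GPX8 and for CHAC2 and GCLC. GCLC, which catalyses the limiting step, was thus the last of the 9 in T24, above 27.2% of all tested genes.

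In T24R2 the order was GPX1 (198 ± 11.1 CPM per kilobase), GPX4 (76.2 ± 7.63), GPX8 (24.2 ± 1.55), GCLM (19.2 ± 0.832), GSR (15.4 ± 1.09), GSS (11.9 ± 0.674), GCLC (6.57 ± 0.134), CHAC2 (3.91 ± 0.846) and GLRX (3.84 ± 0.320). Only the ranges of CHAC2 and GLRX overlapped among neighbours. GCLM rose from above 50.3% to above 85.1% of tested genes, GCLC from above 27.2% to above 59.3%, and GSS went from above 85.3% to above 75.2%. GPX1 and GPX4 were among the top 3% of genes in both lines. The order depends on the length used. Per kilobase of coding sequence, GPX4 and GPX1 overlapped at the top in T24 (359 ± 27.8 and 347 ± 6.98 CPM per kilobase), GLRX took the fifth place in both lines, and CHAC2 was the last in both.

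**Figure D4:**
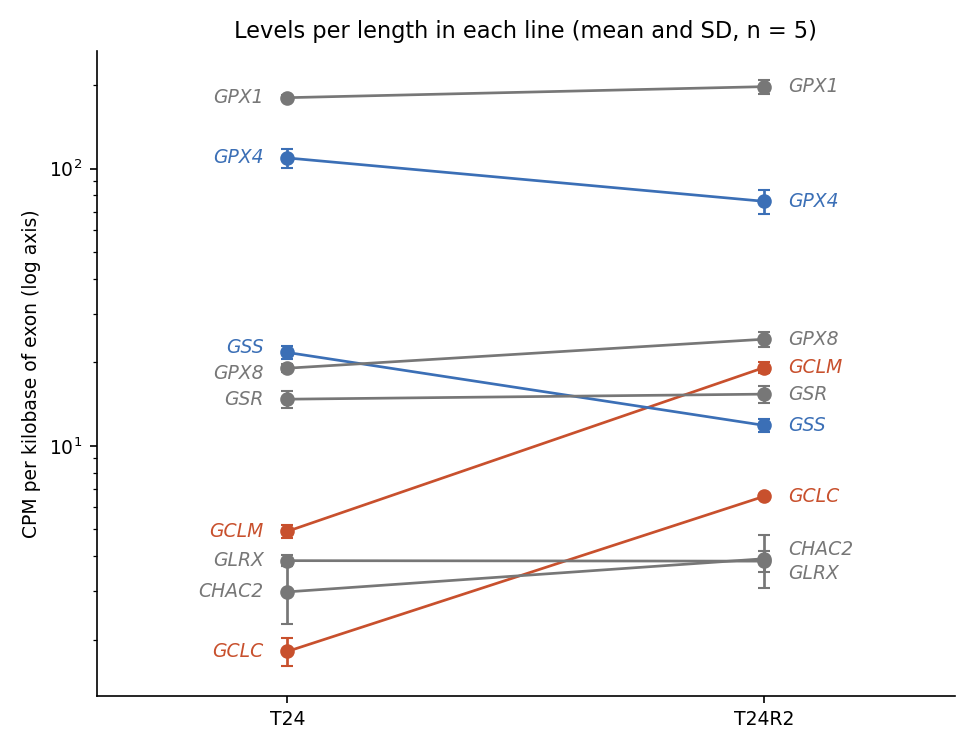
Mean CPM per kilobase of exon with its SD over 5 libraries is plotted for each gene in T24 (left) and T24R2 (right) on a log axis; orange lines were called higher, blue lines lower and grey lines neither. GCLM crosses GSS between the lines, and GCLC moves from the last place of the order to above CHAC2 and GLRX.

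Of the 8 tested genes taken as nearest neighbours of the 4 called genes, 4 passed both thresholds. This is a share close to that of all tested genes (51.4% called, 24.9% higher and 26.5% lower). The counts within 500 kb below are to be read against the same shares. For GCLC, GCLC-AS1, which lies within the span of GCLC, was higher. Where exons overlap, its reads cannot be told apart from those of GCLC if the libraries carry no strand information. It may thus not be an independent neighbour. On the other side, LRRC1 was lower with a log2 fold change of -1.59. Beside GSS, ACSS2 was higher (1.23), and beside GPX4, SBNO2 was lower (-0.92). The other 4 were not called, with values of 0.15 for DNTTIP2 and -0.48 for ARHGAP29 beside GCLM, -0.38 for MYH7B beside GSS and 0.32 for POLR2E beside GPX4. Within 500 kb on each side, the median log2 fold change was -0.27 over 5 tested genes for GCLC (2 higher, 2 lower), -0.42 over 7 for GCLM (0 higher, 1 lower), -0.30 over 19 for GSS (3 higher, 8 lower) and 0.01 over 51 for GPX4 (12 higher, 11 lower).

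Of 58 other genes of glutathione metabolism in 8 lists, 42 were tested, of which 14 were called higher and 9 lower, with a median log2 fold change of -0.02. The share called is close to that of all tested genes (51.4% called, 24.9% higher and 26.5% lower), against which the counts of each list below are to be read. The genes that supply cysteine, the limiting amino acid, were higher in 4 of 4 cases, where 24.9% of all tested genes were higher. The list is small, and the counts of 1 of its genes are uncertain. It was chosen with earlier results of these data known, and the study itself reports the rise of SLC7A11 in T24R2. The 4 of 4 is therefore a description and not a test of the list. SLC7A11, the cystine importer, had 57.8 ± 5.79 CPM in T24 and 481 ± 31.4 CPM in T24R2. Its partner chain SLC3A2 had 255 ± 4.93 and 504 ± 26.1 CPM. CTH, which makes cysteine from cystathionine, had 6.81 ± 1.75 and 24.6 ± 1.93 CPM. The fourth, CBS, makes cystathionine, and its counts are uncertain because reads that also match its near-identical copy CBSL were removed as multiply mapped. The 2 mitochondrial glutathione importers, SLC25A39 and SLC25A40, were higher in both cases by 0.56 and 0.58 on the log2 scale.

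Of 5 detoxification genes that use glutathione without being transferases, 3 were lower and 0 higher, where 26.5% of all tested genes were lower. GLO1, which starts the removal of methylglyoxal with glutathione, had 202 ± 9.38 CPM in T24 and 113 ± 6.37 CPM in T24R2. HAGH, the next enzyme of that route, had 43.5 ± 2.60 and 24.6 ± 1.604 CPM. ETHE1, a mitochondrial persulfide dioxygenase, had 40.5 ± 2.41 and 21.2 ± 2.23 CPM. All 5 libraries of T24R2 lay below T24 in each of these 3 genes, where 61.2% of all tested genes had no overlap in either direction. In ADH5 of the same list they lay above T24 (116 ± 4.56 CPM in T24 and 126 ± 3.56 CPM in T24R2). Its log2 fold change of 0.12 was under the fold change minimum.

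Of 13 breakdown and salvage genes, 6 were tested, with 1 higher and 2 lower, a share called close to the 51.4% of all tested genes. OPLAH, the 5-oxoprolinase that recycles the product of the cyclotransferases to glutamate, had 197 to 239 counts in each T24 library (22.7 ± 1.501 CPM) and 0 in every T24R2 library, which is at least 81.9-fold higher in T24 with a floor of 3 counts per library. GGT7, of the gamma-glutamyltransferase family, fell by 1.18 on the log2 scale, and CHAC1, the stress-induced relative of CHAC2, was higher by 0.76 on the log2 scale (12.9 ± 1.19 and 21.96 ± 2.86 CPM).

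Of the 3 other glutaredoxins, GLRX2 was higher (log2 fold change 0.58, SE 0.11), GLRX3 lower (-0.77, SE 0.05) and GLRX5 changed by -0.15, under the fold change minimum. Of 5 other glutathione peroxidases only GPX3, a secreted selenoprotein, had enough counts, and it was called higher (log2 fold change 0.99, SE 0.30) at 1.37 ± 0.573 and 2.74 ± 0.646 CPM with overlapping libraries. GPX7, the nearest relative of GPX8, was named after its values were seen. It had 9 to 14 counts per T24 library and 0 to 1 per T24R2 library and was not tested.

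As GPX1 and GPX4 need selenocysteine, the genes of its insertion and the other selenoproteins were counted too. Of the 7 genes listed under insertion, 1 was called, where 51.4% of all tested genes were. It was SEPHS1, higher by 0.76 on the log2 scale (SE 0.06). SEPHS2, which makes the selenium donor, changed by 0.24 and TRNAU1AP by -0.36, both under the fold change minimum. Of 19 other selenoproteins, 14 were tested, with 4 higher and 3 lower. Mitochondrial thioredoxin reductase TXNRD2 was higher by 1.35 (SE 0.07), whereas SELENOT and SELENOO were lower by values of -1.15 and -0.74. The 7 called of 14 are a share close to the 51.4% of all tested genes.

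**Figure D5:**
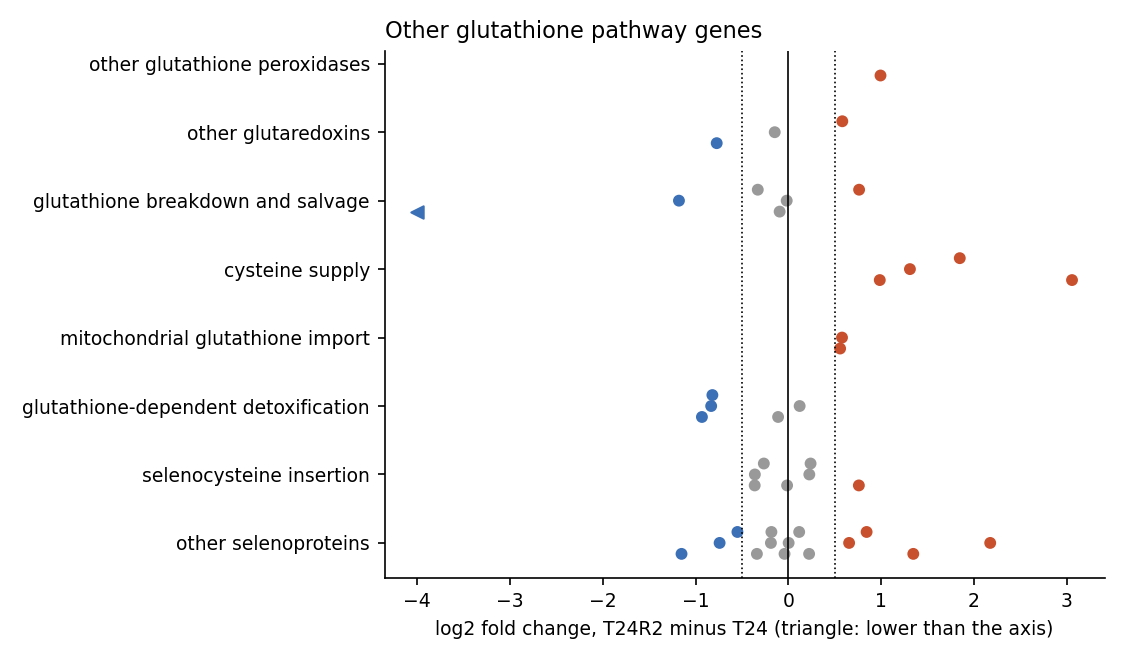
Each point is 1 of the 42 tested genes of the other pathway lists, placed by its log2 fold change, T24R2 minus T24; orange points were called higher, blue lower and grey neither, and the triangle marks OPLAH, which lies beyond the axis because T24R2 had no count. All 4 cysteine supply genes and both mitochondrial importers lie to the right, and 3 of 5 detoxification genes lie to the left.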

How the data were processed

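RNA-seq counts of 5 T24 and 5 T24R2 libraries were analysed. The authors aligned with STAR 2.7.0 to hg38, removed duplicate and multiply mapped reads by SAMtools 1.10, and deposited raw fragment counts per gene of GENCODE 39 from featureCounts 2.0.1 with strand option 1. The kit is not described as strand-specific, so antisense genes that overlap 1 of the 9 genes are given beside its result. For the other lists they are not given, although opposite-strand exons overlie, for instance, 15.0% of ETHE1 and 8.97% of SLC7A11 exon bases. Without genes that have over 10% of exon bases so overlain, 14 other pathway genes were called higher and 8 lower.

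The lines were compared by edgeR 4.0.16 under R 4.3.3 (filterByExpr, TMM, glmQLFit, glmQLFTest, Benjamini-Hochberg adjustment over 16181 genes). On simulated counts with 200 of 16181 genes changed, 191 of the 200 were called, and 5 unchanged ones. In the data 51.4% of tested genes were called, so the simulation does not test the scaling between lines that differ so widely. CPM used TMM-scaled library sizes. Ratios used counts plus 0.5, and single values an exact two-sided permutation test. DESeq2 1.42.0, limma 3.58.1 (voom) and other scalings, filters and left-out libraries were alternatives. Coding sequences came from GENCODE 44, promoters from RefSeq, and translations were aligned with Biopython 1.88 (BLOSUM62).

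The members and lists were chosen with earlier results of these data known. Named were the 9 genes, up to 3 tested genes per pathway list with the smallest adjusted p, nearest tested neighbours, opposite-strand overlaps and pseudogenes. Marker genes, CBS, ADH5 and GPX7 were named after their values were seen. Floors and intervals cover counting error or library spread only.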

Additional observations from a re-analysis of the deposited data

Results flagged for a closer look

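Within a line, 3 of 24 sets of 5 libraries held 1 library far from the other 4, where chance would give 1.2. GSS was at 122 CPM in T24 replicate 4, below the 135 to 139 CPM of the other T24 libraries. GPX8 was at 81.6 CPM in the same library, above the 75.4 to 76.3 CPM of the others. GSR was at 48.5 CPM in T24R2 replicate 2, below the 55.7 to 58.1 CPM of the other T24R2 libraries. Without these libraries GSS stayed called lower, and GPX8 and GSR stayed uncalled.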

How the results depend on the processing

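GCLC (log2 fold change 1.78 to 2.02), GCLM (1.94 to 2.13) and GSS (-0.91 to -0.71) kept their calls in all 23 alternative fits at the main thresholds. Scaling by library size alone, which moves the median of all genes to 0.18 and turns 4027 higher and 4282 lower calls into 5206 and 3431, called 4 of the 9 genes higher (CHAC2 at 0.57 and GPX8 at 0.51 were added) and 1 lower. Upper-quartile scaling and a mean of at least 100 counts also left 1 lower, as GPX4 was lost, and leaving out each library in turn gave 1 to 2 lower. Without a fold change minimum, 4 were higher, and 17 other pathway genes were lower. With a minimum of 1, 0 of the 9 were lower, and 5 other pathway genes were higher and 3 lower. GLRX, near 0, turned positive with library sizes alone (0.16), upper-quartile scaling (0.0694) and the stricter filter (0.0257), and lay between -0.0296 and 0.0476 without single libraries. A replicate block changed no call of the 9 genes; same-numbered libraries correlated at -0.02 to 0.02, so numbers do not pair them, and with it the ratios GCLC to GSS (2.74) and GPX4 to GPX1 (-0.65) had p = 0.0625 by an exact test, the smallest 5 pairs allow. The coding length was chosen after seeing the data, and RefSeq protein lengths were not run. CHAC2 had the fewest counts, 26 to 79 per library, and the widest interval of the 9. Its adjusted p in edgeR ran from 0.011 with library sizes alone to 0.24 without T24R2 replicate 2.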
